A study of Mus musculus with 59 samples.

Results

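Mice labelled heterozygous for both Slc25a1 and Mrpl40 were compared with wild type in the cortex and the hippocampus of the same animals. Slc25a1 encodes the citrate carrier of the inner mitochondrial membrane, while the product of Mrpl40 belongs to the large mitochondrial ribosomal subunit. Both genes lie in the mouse region that matches the human 22q11.2 deletion. The carrier exports citrate to the cytosol, where it feeds lipid synthesis and acetyl-CoA pools, and the mitochondrial ribosome makes the core subunits of the respiratory chain. The quantity of interest was a difference of differences: hippocampus minus cortex in mice labelled double het, less hippocampus minus cortex in wild type, on the log2 scale. A positive value means that double het minus wild type was higher in hippocampus than in cortex. It was measured by poly(A) RNA sequencing in 30 of the 59 libraries of the series, and 20481 genes were tested.

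All mice were male. Wild type (Mrpl40 +/+,Slc25a1 +/+) was represented by 8 animals, replicates 2 to 9, and double het (Mrpl40 -/+,Slc25a1 -/+) by 7 animals, replicates 1 to 7. Each animal gave 1 cortex and 1 hippocampus library, and the animal number in the labels ties them together. The labels used here state no age, strain or kind of mutant allele. RNA came from tissue and not from sorted cells, so fewer cells of a type and less RNA per cell cannot be told apart in any value below.

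Library totals ranged from 21467790 to 31854093 counts. Tissue markers went with the labels: the summed level of 17 neocortical layer markers was 1270 to 1440 CPM (counts scaled per library, TMM-adjusted) in every cortex library and 714 to 865 in every hippocampus library. Individual hippocampus libraries stood apart within their genotype in markers of choroid plexus or of oligodendrocytes. The choroid plexus markers summed to 102 CPM in double het replicate 6 against at most 44.7 CPM in the other double het hippocampus libraries. Oligodendrocyte markers summed to 4780 CPM in wild-type replicate 8 against at most 3420 CPM in the other wild-type hippocampus libraries. They spread widely in double het hippocampus too, from 2150 to 4350 CPM. The part of these libraries in single results was not tested beyond the fits without each animal.

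The targeted genes were read first. Slc25a1 went against the label in 4 of the 15 animals, in both tissues. In cortex it measured 23.8 to 26.4 CPM in 6 wild-type animals, but 12.7 and 12.2 CPM in wild-type replicates 6 and 7. It measured 10.8 to 12.2 CPM in 5 animals labelled double het, but 22.0 and 21.1 CPM in double het replicates 5 and 6. The genotypes below are therefore as labelled, every direction refers to those labels, and the main results are also given without these 4 animals. Over all animals as labelled, Slc25a1 averaged 21.7 CPM in wild-type and 14.3 CPM in double het cortex, and 21.6 and 15.6 CPM in hippocampus. The tissue difference of the effect was 0.14 ± 0.067 (log2, SE; unadjusted p = 0.0537; adjusted p = 1, edgeR quasi-likelihood test with Benjamini-Hochberg adjustment). The two-sided exact permutation test over the 15 animals gave p = 0.0278, or 0.0556 adjusted over the 2 targeted genes. The reduction of Slc25a1 was thus not shown to differ between the tissues. The RNA of Mrpl40 was not reduced in the animals labelled double het, and the labels do not say whether the allele lowers it. Mrpl40 ranged from 16.1 to 20.7 CPM in wild-type cortex and from 15.2 to 19.6 CPM in double het cortex. The means were 17.7 ± 1.4 CPM (SD, n = 8) in wild-type and 17.5 ± 1.4 CPM (SD, n = 7) in double het cortex. Its tissue difference of the effect was 0.049 ± 0.077 (log2, SE; edgeR adjusted p = 1).

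Cortex and hippocampus differed in most genes, and mostly in the same direction in both genotypes. Hippocampus and cortex differed in 12413 genes (60.6%) in wild type and in 11840 genes (57.8%) in double het (edgeR adjusted p below 0.05). The direction was the same for 10483 genes called in both genotypes and opposite for 14. Another 1916 genes were called in wild type only and 1343 in double het only. Of 2659 genes called in wild type with at least a 2-fold tissue difference, 2656 had the same sign in double het, and 2575 were also called there. A total of 0 of these strongly tissue-specific genes passed the test for the difference between the genotypes. Over all 20481 genes tested 2 passed (0.00977%), so a count of 0 here is near that share and says little about these genes. In the plot of all genes, the points lie along the diagonal and the 4 genes marked lie above it, near the middle of the range.

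**Figure D1:**
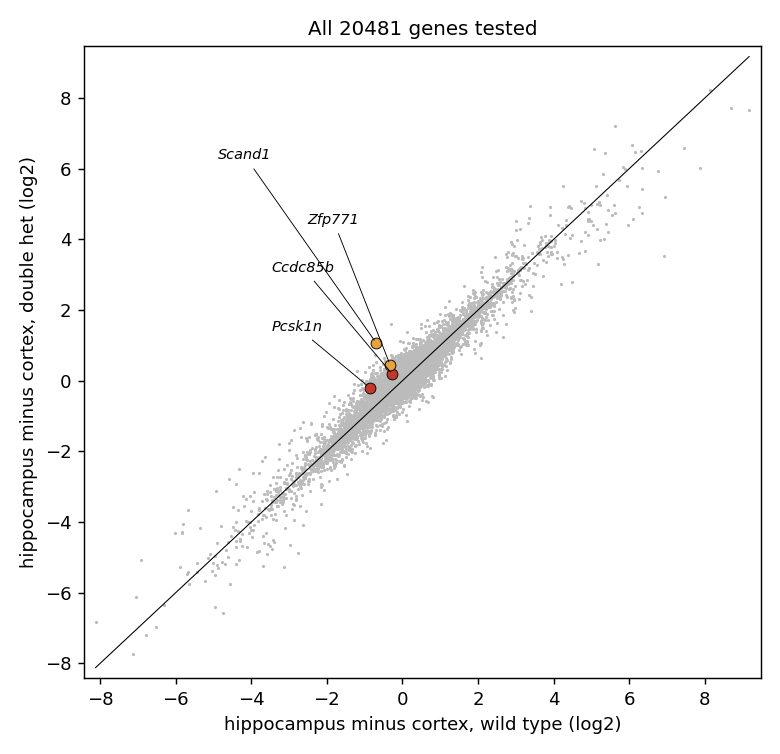
Hippocampus minus cortex (log2 fold change from the animal-blocked fit) in wild type on the x axis and in double het on the y axis, 1 point per gene; the line marks equal values. The 2 red genes, Pcsk1n and Ccdc85b, passed the test of the difference, and the 2 orange genes, Zfp771 and Scand1, did not.

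The effect of the genotype differed between the tissues in 2 genes, Pcsk1n and Ccdc85b, or 0.00977% of the genes tested. Both values were positive. At an unadjusted p below 0.05 there were 971 genes (4.74%), 534 positive and 437 negative. The median over all genes tested was 0.0026, and 51% of genes were above 0. For 14308 genes (69.9%) the 95% interval of the difference lay inside a 1.5-fold change either way, and for 17812 genes (87%) inside a 2-fold change. It lay inside a 1.2-fold change for 8400 genes, so smaller differences could not be resolved in most genes. Within the tissues, 1 gene was called between double het and wild type in cortex (0.00488%) and 6 in hippocampus (0.0293%). The gene called in cortex was the predicted gene Gm7331 (-0.225, edgeR adjusted p = 0.0175). Neither Pcsk1n nor Ccdc85b was among these calls.

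Pcsk1n (ENSMUSG00000039278) encodes proSAAS, a secreted granin-like protein that inhibits the prohormone convertase encoded by Pcsk1 and acts as a chaperone in neurons. In wild-type cortex it ranged from 266 to 352 CPM with a median of 323, and in double het cortex from 169 to 301 CPM with a median of 237. In hippocampus it averaged 174 CPM in wild type and 198 CPM in double het. The level was thus lower in double het cortex, with 1 double het animal inside the wild-type range, and the hippocampus means went the other way. Hippocampus minus cortex within an animal ran from -1.27 to -0.56 in wild type (log2 CPM, median -0.825) and from -0.40 to -0.086 in double het (median -0.17), and the genotypes did not overlap. The fitted tissue difference was -0.87 in wild type and -0.19 in double het, so the preference for cortex was smaller in animals labelled double het. The difference of 0.675 ± 0.085 (log2, SE; 1.6-fold) passed the test with an edgeR adjusted p of 0.00288. Double het minus wild type taken within each tissue, without the pairing, was -0.48 ± 0.12 in cortex (edgeR adjusted p = 0.191) and 0.18 ± 0.12 in hippocampus (edgeR adjusted p = 0.908). Without the 4 animals whose Slc25a1 level went against the label, the difference was 0.60 (edgeR adjusted p = 0.0378), and it passed in each of the 15 fits that left out 1 animal. It ended without the animal block (adjusted p = 0.798) and with a required fold of 1.2 (adjusted p = 0.163).

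Ccdc85b (ENSMUSG00000095098) encodes a small coiled-coil protein also known as delta-interacting protein A. It ranged from 57.3 to 73.3 CPM in wild-type cortex (median 70.5) and from 45.4 to 59.0 CPM in double het cortex (median 52.7). In hippocampus it averaged 56.8 CPM in wild type and 59.9 CPM in double het. Its tissue preference had opposite signs: hippocampus was below cortex in 8 of 8 wild-type animals, from -0.50 to -0.044, and above cortex in 7 of 7 double het animals, from 0.039 to 0.47. The difference was 0.45 ± 0.068 (log2, SE; 1.36-fold; edgeR adjusted p = 0.0144). Within the tissues it was -0.37 ± 0.073 in cortex (edgeR adjusted p = 0.097) and 0.078 ± 0.072 in hippocampus (edgeR adjusted p = 0.939). This call was the less firm of the pair. It was lost without the 4 animals that went against the label (0.37, edgeR adjusted p = 0.287), with all 4 genotypes in the fit (0.44, adjusted p = 0.168), without the block (adjusted p = 0.363), at a required 1.2-fold (adjusted p = 1), without wild-type replicate 5 (adjusted p = 0.0501) and without double het replicate 4 (adjusted p = 0.0675).

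**Figure D2:**
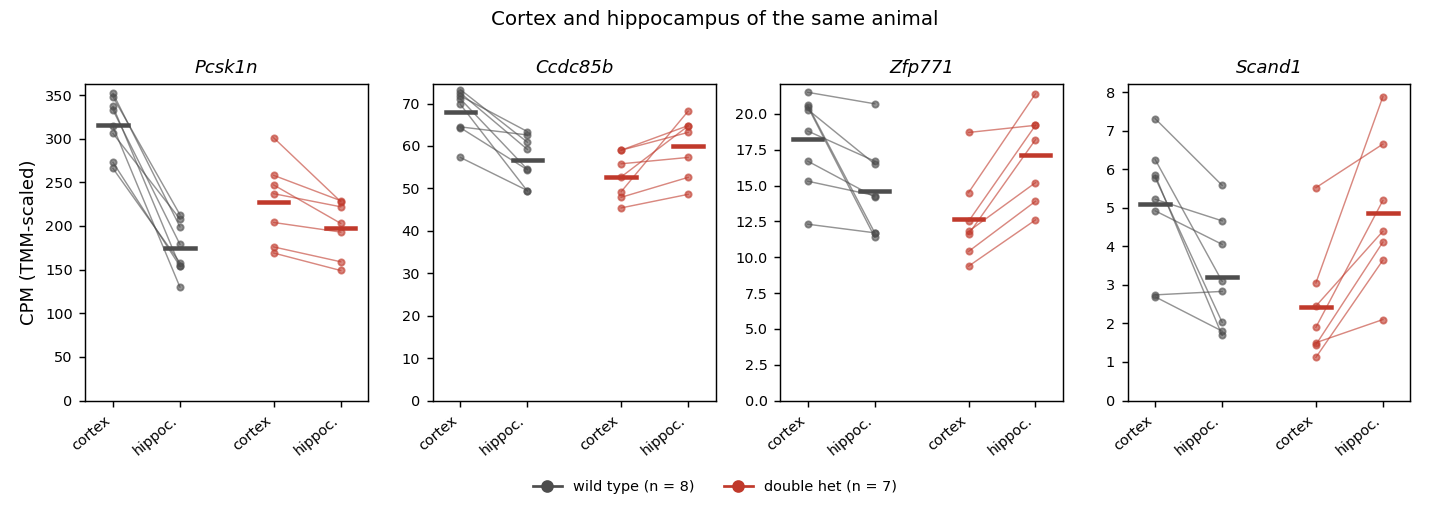
TMM-scaled CPM of Pcsk1n, Ccdc85b, Zfp771 and Scand1 in cortex and hippocampus; each line joins the tissues of 1 animal, grey for wild type (n = 8) and red for double het (n = 7), and horizontal bars are group means. Pcsk1n fell from a mean of 316 to 174 CPM between cortex and hippocampus in wild type, against 228 and 198 CPM in double het. The group means of the other genes had opposite slopes in the genotypes, while Scand1 also rose in 1 wild-type animal.

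The promoters of the 2 genes that passed are shown because these genes alone carry the calls. Both windows run from 250 bases before to 50 bases after the annotated start (RefSeq, GRCm38.p6). Capitals mark the GC box, GGGCGG or its reverse complement CCGCCC, searched on both strands. The Pcsk1n window is on the plus strand at chrX:7919572-7919871, and the Ccdc85b window on the minus strand at chr19:5457514-5457813.
Pcsk1n: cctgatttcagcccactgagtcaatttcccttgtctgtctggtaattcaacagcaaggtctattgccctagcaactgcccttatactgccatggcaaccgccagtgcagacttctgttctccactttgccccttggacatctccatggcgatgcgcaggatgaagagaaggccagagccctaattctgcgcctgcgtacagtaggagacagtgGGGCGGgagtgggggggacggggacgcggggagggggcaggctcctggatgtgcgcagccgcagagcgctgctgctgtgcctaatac
Ccdc85b: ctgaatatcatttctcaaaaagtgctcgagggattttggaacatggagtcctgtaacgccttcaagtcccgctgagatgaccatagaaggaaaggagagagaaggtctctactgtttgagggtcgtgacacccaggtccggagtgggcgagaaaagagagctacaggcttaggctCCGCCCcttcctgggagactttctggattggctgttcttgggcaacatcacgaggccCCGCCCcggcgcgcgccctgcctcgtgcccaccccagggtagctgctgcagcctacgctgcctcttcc
The Pcsk1n window held 1 GC box and 12 CpG sites at a GC content of 58.7%, and the Ccdc85b window held 2 GC boxes and 15 CpG sites at 57.7%. A GC box stood in 35.7% of 32851 windows of this length, and their median GC content was 52.7%. The matches describe letters in the window, and no binding was measured.

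The 10 genes with the next smallest p values did not pass. Zfp771, a zinc finger protein, and Scand1, a SCAN domain protein that lacks zinc fingers, led them. Zfp771 ranged from 12.3 to 21.5 CPM in wild-type cortex (median 19.5) and from 9.37 to 18.7 CPM in double het cortex (median 11.8). Hippocampus minus cortex was below 0 in 8 of 8 wild-type animals and above 0 in 7 of 7 double het animals, with a difference of 0.76 (edgeR adjusted p = 0.0608). Scand1 was a low gene, at 5.09 ± 1.6 CPM (SD, n = 8) in wild-type and 2.43 ± 1.5 CPM (SD, n = 7) in double het cortex. Its per-animal tissue difference ran from -1.74 to 0.044 in wild type and from 0.26 to 1.64 in double het, without overlap, and the difference was 1.75 (edgeR adjusted p = 0.0613). Both passed with all 4 genotypes in the fit (adjusted p = 0.0313 and 0.0379) and in DESeq2 (0.000139 and 3.03e-06). Neither passed without the 4 animals that went against the label (adjusted p = 0.405 and 0.31).

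H2afj, a histone H2A variant gene, averaged 16.7 CPM in wild-type and 13.4 CPM in double het cortex, and 16.3 and 16.8 CPM in hippocampus. Its difference was 0.37 ± 0.075 (log2, SE; edgeR adjusted p = 0.0941). The other 7 genes carry identifiers of predicted or unnamed genes. Of these, 1110065P20Rik had a difference of 0.55 (edgeR adjusted p = 0.0685), Gm9824 of 0.32 (0.0895), Gm21887 of 0.54 (0.0895) and Gm7331 of 0.28 (0.0941). The sole negative value among them was Gm14681, at -0.41 (0.0613), which averaged 16.1 CPM in wild-type and 18.2 CPM in double het cortex and 24.8 and 21.0 CPM in hippocampus. The unnamed ENSMUSG00000121607 and ENSMUSG00000121914 had differences of 0.35 (0.0685) and 1.07 (0.0895). Where such genes have near-identical copies, reads may be split between them, and their values are uncertain.

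**Figure D3:**
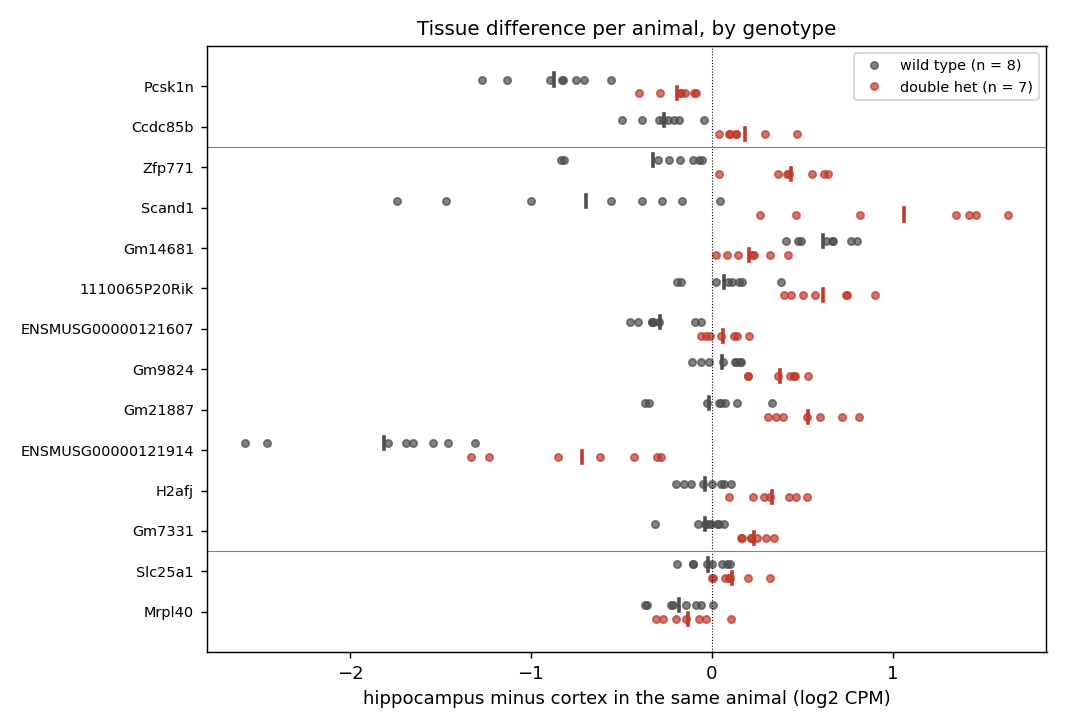
Hippocampus minus cortex in the same animal (log2 CPM, x axis) for the 2 genes that passed, the 10 next smallest p values and the targeted genes; grey points are wild-type animals (n = 8), red points double het animals (n = 7), and vertical bars are means. The animals of the genotypes do not overlap in Pcsk1n, from -1.27 to -0.56 against -0.40 to -0.086, and overlap widely in Mrpl40.

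Of the 20 genes with the smallest p values 16 were positive, and in 15 of them double het was lower than wild type in cortex and higher in hippocampus. The opposite pattern was found in 4, and 11 of the 20 were predicted or unnamed. Among the 50 smallest, 34 were positive, 33 of these had the first pattern, and 16 genes had the opposite one. Ranking by the p of this difference itself favours opposite signs in the tissues, so the patterns are no separate result. Of all genes tested 51% were positive, and the patterns were not counted over all genes. The per-animal values of the genotypes did not overlap in 12 genes, or 0.0586% of those tested, 8 of them positive and 4 negative. Besides genes already described, the list held Zmat5, with a difference of 0.40 (edgeR adjusted p = 0.131), chosen after its values were seen, and 4 negative genes. These were Slc25a40, a mitochondrial carrier, with -0.24 (0.758), and the pseudogenes or predicted genes Gm9385 with -0.37 (0.29), Gm9030 with -0.44 (0.527) and Mrps36-ps1 with -0.34 (0.606). The last 3 were also chosen after their values were seen. Among the 14 genes with opposite called tissue differences was Pvr, a nectin-like adhesion receptor, at -0.22 in wild type and 0.16 in double het (difference 0.38, edgeR adjusted p = 0.13), also chosen after its values were seen.

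The genes around the 2 targeted functions were described next, by counts and medians beside those of all genes (median 0.0026, 51% above 0). Of 49 genes of the large mitochondrial ribosomal subunit, 20 were above 0 and 29 below, with a median of -0.018, and none passed. Of 29 genes of the small subunit, 14 were above 0, with a median of -0.0032, and none passed. The highest of these was Mrps34, at 7.96 CPM in wild-type and 5.71 CPM in double het cortex and 6.90 and 7.39 CPM in hippocampus, a difference of 0.65 ± 0.16 (edgeR adjusted p = 0.362). Mrps24 followed at 0.29 ± 0.087 (adjusted p = 0.803). In the large subunit Mrpl43 lay lowest at -0.23 ± 0.078 (adjusted p = 0.901).

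Of 32 tested members of the SLC25 carrier family, Slc25a1 included, 17 were above 0, with a median of 0.0089, and none passed. Of 22 genes of the citrate cycle and of citrate use, 7 were above 0, with a median of -0.038. Dld, the dihydrolipoamide dehydrogenase shared by the mitochondrial 2-oxoacid dehydrogenases, had -0.13 ± 0.046 (edgeR adjusted p = 0.956), and Fh1, fumarase, had -0.11 ± 0.054 (adjusted p = 1). Of 36 nuclear subunits of complex I, 11 were above 0 (median -0.044), and of 39 of complexes II to V, 12 were (median -0.028). None of these passed. Atp5g3, a ring subunit of ATP synthase, had the smallest p among them, with -0.19 ± 0.05 (adjusted p = 0.495), and Cox5a, of cytochrome oxidase, lay on the other side at 0.19 ± 0.064 (adjusted p = 0.91). The 23 cholesterol synthesis genes centred on -0.0034, with 9 above 0 and a range from -0.12 to 0.099. The interval of every one of them lay between -0.263 and 0.285 on the log2 scale. Of 28 neighbours in the region matching 22q11.2, 13 were above 0 and 15 below (median -0.013), and none passed.

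**Figure D4:**
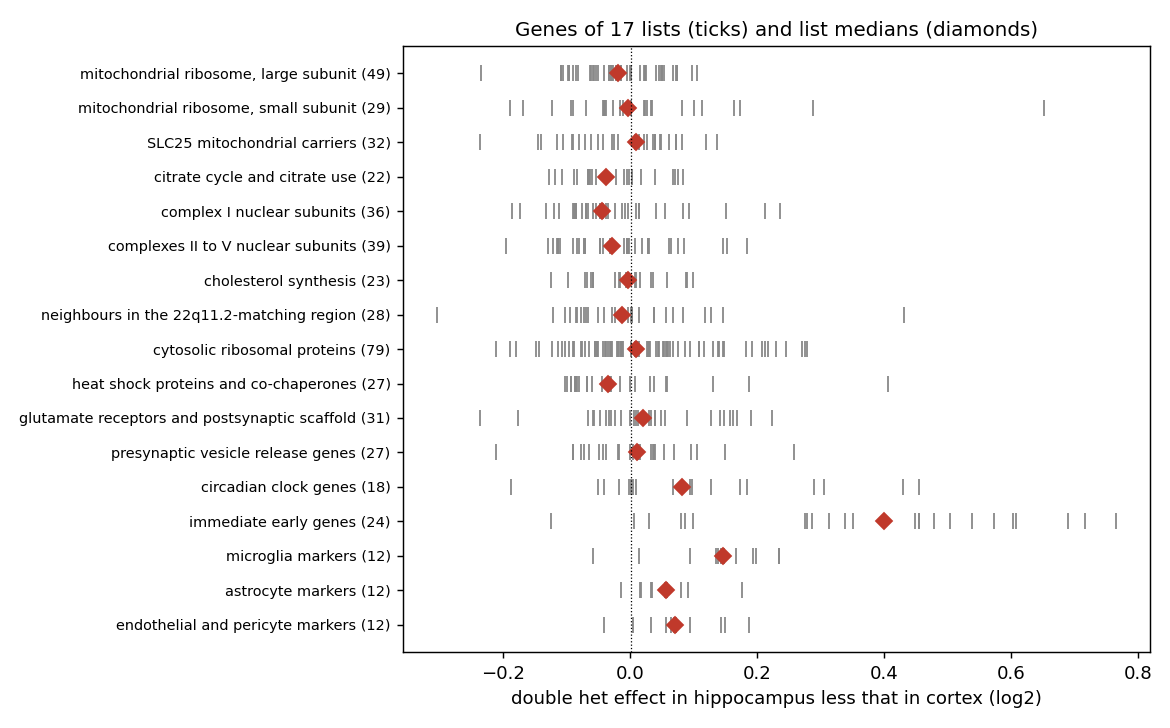
Tissue difference of the double het effect (log2, x axis) for the genes of 17 lists; each grey tick is 1 gene, each red diamond the list's median, the number in brackets the genes tested, and the dotted line the median of all genes. Mitochondrial lists centre near 0 (for example -0.018 for the large ribosomal subunit), and the immediate early genes centre at 0.40.

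Immediate early genes, which neurons transcribe within minutes of activity, had the highest median of these 17 lists. Of 24 genes 23 were above 0, with a median of 0.40, and none passed the test. In double het minus wild type their median was -0.30 in cortex, where 2 of 24 were above 0, and 0.032 in hippocampus, where 14 were. Egr4, a zinc finger transcription factor, averaged 43.4 CPM in wild-type and 30.2 CPM in double het cortex, with ranges from 18 to 62.2 and from 17 to 54.2 CPM that overlapped. In hippocampus it averaged 8.69 and 9.86 CPM. Its difference was 0.76 ± 0.28 (edgeR adjusted p = 1). Arc, a regulator of synaptic AMPA receptors, averaged 489 CPM in wild-type and 355 CPM in double het cortex, and 74.4 and 79.7 CPM in hippocampus, a difference of 0.60 ± 0.36 (adjusted p = 1). Fos averaged 78.6 CPM in wild-type and 55.6 CPM in double het cortex, and 6.83 and 6.71 CPM in hippocampus (0.54 ± 0.27, adjusted p = 1). Egr3 was the 1 gene below 0, at -0.12 ± 0.21.

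Averaged over the 24 genes, hippocampus minus cortex ran from -1.93 to -0.72 across wild-type animals and from -1.94 to -0.82 across double het animals. The 2 ranges overlapped, with or without wild-type replicate 3, which alone made the upper wild-type end. The other wild-type animals lay from -1.93 to -1.60, inside the double het range. The medians were -1.69 in wild type and -1.21 in double het. The 24 genes were measured in the same animals and are not separate observations. Without the 4 animals that went against the label the median of the list was 0.21. Leaving out 1 animal moved it between 0.30 (without double het replicate 5) and 0.50 (without wild-type replicate 3). The clock genes leaned the same way, with 13 of 18 above 0 and a median of 0.081, and Per1 belongs to both lists. Dbp, a clock output factor, averaged 39.1 CPM in wild-type and 29.5 CPM in double het cortex, and 25.5 and 26.1 CPM in hippocampus (0.43 ± 0.11, edgeR adjusted p = 0.472). Without the 4 animals the clock median was -0.0068.

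Markers of several cell types lay on 1 side without any gene passing. Of 12 microglia markers 11 were above 0, with a median of 0.15. Their double het minus wild type was below 0 in 12 of 12 in cortex, with a median of -0.14, and had a median of -0.025 in hippocampus. This was not particular to microglia. In cortex, 0 of 12 astrocyte markers and 0 of 12 endothelial and pericyte markers were above 0, against 10015 of 20481 genes tested. C1qa is a complement component made by microglia. It ranged from 28.5 to 33.5 CPM in wild-type cortex and from 23.7 to 26.4 CPM in double het cortex. Double het minus wild type in cortex was -0.30 ± 0.061 and did not pass (edgeR adjusted p = 0.097). In hippocampus C1qa averaged 32.3 and 30.8 CPM, and the tissue difference of the effect was 0.23 ± 0.078 (edgeR adjusted p = 0.901). Csf1r, the receptor that microglia need to survive, had 0.19 ± 0.063 (adjusted p = 0.901). The summed level of the 12 microglia markers was 393 to 459 CPM in wild-type cortex and 344 to 396 CPM in double het cortex. In hippocampus it was 372 to 473 CPM in wild type and 382 to 467 CPM in double het. Without the 4 animals that went against the label the median was 0.082.

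Of 12 astrocyte markers 11 were above 0 (median 0.057), as were 11 of 12 endothelial and pericyte markers (median 0.071). Of 11 excitatory neuron markers 8 were above 0 (median 0.089), led by Cck, a neuropeptide, at 0.33 ± 0.11 (edgeR adjusted p = 0.901). Interneuron markers centred on -0.022 and neocortical layer markers on -0.025. Of 25 neuropeptide, granin and processing genes 14 were above 0, with a median of 0.0017, and Pcsk1n was the 1 that passed. Whether shifts of cell types took part in the 2 calls was not tested.

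Lists for neighbouring tissue rested on few genes, and none of these passed. Of 6 choroid plexus markers tested 4 were above 0 (median 0.25), as were 6 of 8 cerebellar markers (median 0.14) and 7 of 8 thalamic and habenular markers (median 0.092), while 7 of 10 striatal markers were below 0 (median -0.14). The 3 brain metallothioneins were above 0 (median 0.13). Of 20 hippocampal subfield markers 14 were above 0 (median 0.064), and of 12 oligodendrocyte markers 9 were (median 0.032). Of 79 cytosolic ribosomal protein genes 43 were above 0 (median 0.0093), with Rpl30 at 0.27 ± 0.071 (edgeR adjusted p = 0.527) and Rpl27a at -0.18 ± 0.053 (adjusted p = 0.782). Of 27 heat shock genes 9 were above 0 (median -0.034), and of 22 ATF4 and integrated stress response genes 12 were (median 0.0061). Of 31 glutamate receptor and scaffold genes 19 were above 0 (median 0.020), among them Grin1, the obligatory NMDA receptor subunit, at 0.17 ± 0.053 (adjusted p = 0.882). Malat1, an abundant nuclear noncoding RNA, averaged 2160 CPM in wild-type and 1890 CPM in double het cortex, and 2030 and 2210 CPM in hippocampus (0.31 ± 0.073, adjusted p = 0.292).

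Nuclear copies of mitochondrial genes were called in 1 tissue without a called difference between the tissues. Gm28437 and Gm10222 were among the 6 genes called in hippocampus, at 0.34 and 0.39 above wild type, and not in cortex, at 0.14 and 0.23. Without the 4 animals that went against the label, 0 of these 6 calls remained (edgeR; 919 genes at an unadjusted p below 0.05). The tissue difference itself was 0.19 ± 0.07 for Gm28437 (edgeR adjusted p = 0.942) and 0.16 ± 0.074 for Gm10222 (adjusted p = 1). All 5 listed copies were above 0, with a median of 0.13, and none passed. The 37 mitochondrial gene rows of the table hold 0 counts, so reads of the mitochondrial genes and of their nuclear copies cannot be told apart here.

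The difference moved with the GC content of the transcript, which was known for 97.3% of the genes tested. The median was -0.018 in the 3720 genes of 40 to 45% GC and 0.068 in the 779 genes of 60 to 65%, where 74.3% of genes were above 0. In the 98 genes above 65% it was 0.16, with 80.6% above 0. In double het minus wild type the same 98 genes had a median of -0.13 in cortex and 0.063 in hippocampus. Per animal, the median tissue difference of genes over 60% GC less that of genes under 45% ran from -0.28 to -0.094 in wild type and from -0.17 to -0.014 in double het, and the genotypes overlapped. Zfp771 and Scand1 have transcripts of 68.7% and 68.4% GC, Ccdc85b of 54.8% and Pcsk1n of 57.3%, against a median of 49.6%. With the trend on GC content and length removed from each library, Pcsk1n kept a difference of 0.65 (edgeR adjusted p = 0.0078) and Ccdc85b of 0.43 (0.0273), while Zfp771 had 0.57 (0.137) and Scand1 1.56 (0.0933). Among the other genes with small p values, 1110065P20Rik had 0.35 (0.646), Gm21887 0.34 (0.8) and Gm9824 0.25 (0.618), while Gm7331 passed, with 0.26 (0.0385). Slc25a1 had 0.090 (0.999). Transcript length moved the median by little, from 0.00014 to 0.0088 over 5 length classes.

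**Figure D5:**
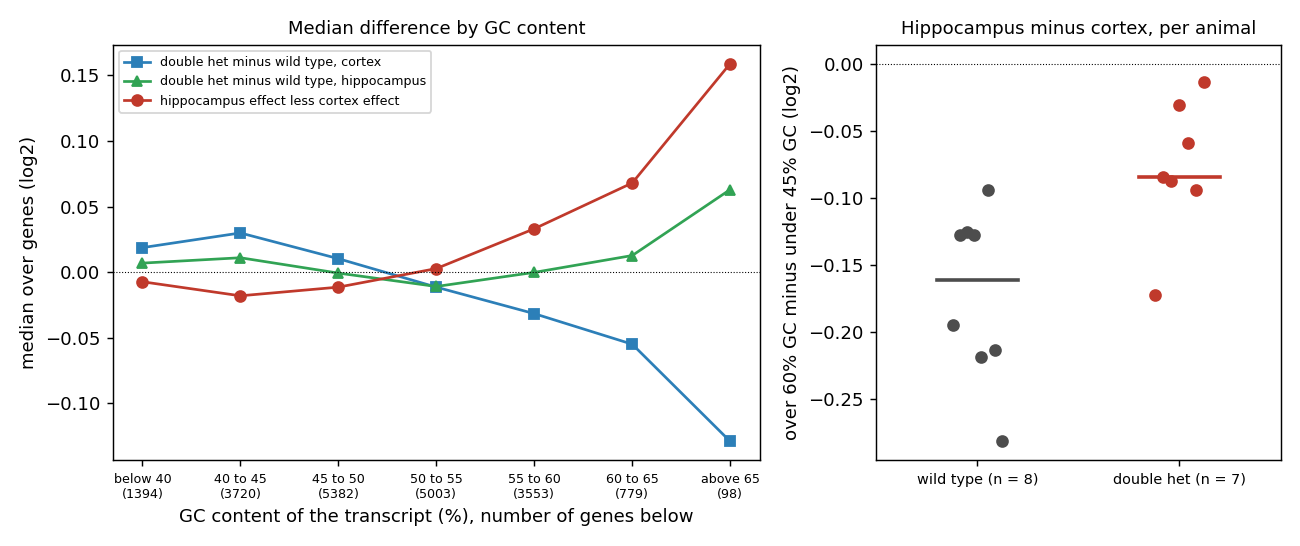
Left: median over genes (log2, y axis) by GC content of the transcript (x axis), for double het minus wild type in cortex (blue squares), in hippocampus (green triangles) and for their difference (red circles). Right: median tissue difference of genes over 60% GC less that of genes under 45%, 1 point per animal, with the group median as a bar (-0.16 in wild type, -0.085 in double het).

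The single heterozygotes give context for the 2 genes, with the same wild-type animals as the reference, so the comparisons are not independent. In 7 animals labelled heterozygous for Slc25a1 alone, hippocampus minus cortex of Pcsk1n ran from -1.43 to -0.40 with a median of -0.88. In 7 animals labelled heterozygous for Mrpl40 alone it ran from -0.77 to -0.345 with a median of -0.53. The difference from wild type was -0.054 ± 0.11 for the former (edgeR adjusted p = 0.97) and 0.34 ± 0.11 for the latter (adjusted p = 0.829), beside 0.67 for double het in the same fit (adjusted p = 0.0171). For Ccdc85b the values were 0.017 ± 0.099, 0.37 ± 0.099 and 0.44 ± 0.099 in the same order (edgeR adjusted p = 0.99, 0.829 and 0.168). In that fit of all 4 genotypes, 0 of 21354 genes passed for either single heterozygote (edgeR; 1281 and 1244 at an unadjusted p below 0.05) and 5 (0.0234%) for double het. The differences between double het and the single heterozygotes were not tested. Slc25a1 in cortex averaged 15.2 CPM in animals labelled heterozygous for Slc25a1 alone and 22.8 CPM in those labelled for Mrpl40 alone. Whether single animals of these groups went against their label is not given here.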

How the data were processed

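Poly(A) RNA of cortex and hippocampus was sequenced paired-end with strand kept. The authors deposited unnormalized counts for each gene and library. They also deposited a signal table of normalized counts, whose values are the counts divided by 1 factor per library (largest relative range 9.85e-10) and served as an alternative. The submitters' processing notes name FastQC, HISAT2, featureCounts, DESeq2 and the builds mm39 and GRCm39; no version or setting accompanies these names, and no annotation is named.

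The 30 libraries of 15 animals were fitted with edgeR 4.0.16 in R 4.3.3: TMM, its filter on low counts (20481 of 57180 genes kept), 1 term per animal, 1 tissue term per genotype, a robust quasi-likelihood test and a false discovery rate of 0.05. Double het minus wild type within a tissue came from group means without the animal. CPM values are TMM-scaled, log2 CPM used a prior count of 2, intervals are 95%, and permutation tests are exact and two-sided over animals. Fold values in the text are on the log2 scale unless written as fold. P-values measure the spread between these animals. Lists were described by counts and medians, with no set test. GC content and length came from GENCODE transcripts of GRCm38 and promoters from RefSeq; Biostrings 2.70.1, Python 3.11.15 and matplotlib 3.10.9 were also used.

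The pairing comes from the animal number in the labels. Deviations from the group mean, taken over 5000 genes, correlated between the tissues of an animal with a median of 0.109 (-0.029 to 0.37 over 15 animals). Between different animals of the same genotype the median was -0.028. The cortex library correlated best with the hippocampus of its own animal in 7 of 15 animals, so the pairing shows only weakly in the values. Genes are not independent replicates.

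The comparison, the lists and the rule for named genes were chosen with earlier results of these data known. The rule names Slc25a1 and Mrpl40, passing genes (average log2 CPM 0 or more, no predicted-gene symbol), the 10 smallest p values that did not pass where fewer than 10 genes passed, and 2 members of each list by p. Any other gene was picked with its values in view. The alternatives tried were no block, all 4 genotypes, DESeq2 size factors, DESeq2 1.42.0, limma 3.58.1 on log2 of the normalized counts plus 1, no filter, a fold of at least 1.2, removal of GC and length trends, and leaving out each animal. A fit without the 4 animals whose Slc25a1 level went against the label was added after seeing the data. The test was also run on simulated counts of 20481 genes. It recovered 4 of 67 genes given a 1.2-fold difference, 38 of 67 at 1.5-fold and 45 of 66 at 2-fold. Another 6 genes were called falsely.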

Additional observations from a re-analysis of the deposited data

Results flagged for a closer look

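The double het effect differed between the tissues by the test of the difference in Pcsk1n (0.675, log2) and Ccdc85b (0.447), as described above. A total of 100 sets of per-animal tissue differences were examined for a single animal far from its group, and 13 held one. Chance alone flags about 1 in 20 such sets, and sets from the same animals are not independent.

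The single gene was Gm7331, at -0.316 in wild-type replicate 9 against -0.074 to 0.069 in the other wild-type animals. The other values are means over lists. Double het replicate 5 stood above the rest in the complex I subunits (0.0889), the subunits of complexes II to V (0.0827) and the large mitochondrial ribosomal subunit (0.0818). Of the animals named here, double het replicates 5 and 6 and wild-type replicate 6 are among the 4 whose Slc25a1 level went against the label. In wild type, replicate 6 stood apart in the large ribosomal subunit (0.089) and replicate 3 in the immediate early genes (-0.715, against -1.93 to -1.60 in the others). Wild-type replicate 8 stood apart in the SLC25 carriers (0.0343), striatal markers (0.256), abundant noncoding RNAs (-0.0391) and red blood cell markers (-0.562). Double het replicate 6 had the highest choroid plexus value of its genotype (2.76), double het replicate 2 the highest striatal value of its genotype (-0.0924) and wild-type replicate 4 the highest thalamic and habenular value of its genotype (1.01).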

How the results depend on the processing

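The number of genes in which the double het effect differed between the tissues, 2 in the reported fit, was 1 with no replicate block (Gm14681, with neither of the 2 reported genes), 5 with all 4 genotypes, 10 with no filter, 15 with DESeq2, 0 at a fold of at least 1.2 (edgeR; 195 at an unadjusted p below 0.05) and 1 without the 4 animals whose Slc25a1 level went against the label. It stayed at 2 with DESeq2 size factors and limma and was 3 with GC and length trends removed. Leaving out each animal gave 1 to 11: 11 without double het replicate 1, 5 without wild-type replicate 2 or 7, 4 without wild-type replicate 3, 6 or 8, and 1 without wild-type replicate 5 or double het replicate 4. The tissue difference itself held 6738 genes in wild type and 6348 in double het at a fold of at least 1.2. Double het minus wild type in cortex, with 1 gene in the reported fit, gave 3 with no filter, 64 with DESeq2, 0 with the trends removed (edgeR; 1577 unadjusted), 0 at a fold of at least 1.2 (207 unadjusted), and 0 to 5 leaving out each animal: 5 without wild-type replicate 8, 2 without wild-type replicate 4 or 7, and 0 without double het replicate 2, 3, 5, 6 or 7 (edgeR; 1634 to 2259 unadjusted). In hippocampus, with 6 genes reported, DESeq2 gave 10, the 1.2-fold test 0 (165 unadjusted), and the fit without the 4 animals 1, a gene lower in double het that was not among the 6. That fit also gave 1 gene in cortex, not the reported one.

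Of 1896 values of named genes under the alternatives, 1844 kept their direction and side of the threshold, 8 lost a call, 43 gained one and 1 reversed. Most named genes lay far from the threshold in the reported fit, so keeping their side of it says little. The reversed gene was Aspa, at 0.104 in the reported fit and not past the test. Its difference ran from -0.0266 (without double het replicate 1) to 0.261 (without double het replicate 7).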
